A study of Rattus norvegicus with 12 samples.

Results

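The mature miRs of 3 related clusters, miR-17-92, miR-106a-363 and miR-106b-25, were examined in small RNA libraries made from extracellular vesicles (EVs) of rat serum. The 10 members were rno-miR-17-5p, rno-miR-18a-5p, rno-miR-19a-3p, rno-miR-19b-3p, rno-miR-20a-5p, rno-miR-92a-3p, rno-miR-363-3p, rno-miR-25-3p, rno-miR-93-5p and rno-miR-106b-5p. They were taken by name from a count table of 426 miRs, which held all 10. No measured value entered the rule, but the list was chosen with earlier results of these data known. The donors were wild-type female Wistar rats, 12 weeks old, whose left Achilles tendon had been injured with a needle. The rapamycin groups received the mTOR inhibitor rapamycin by daily intraperitoneal injection at 2 mg/kg, and the vehicle groups received the PEG and TWEEN 80 solution without it. The paper reports dissolving rapamycin in DMSO before dilution and lists none in the vehicle, so the treatments may also have differed in DMSO. Animals were sampled at day 7 after 5 injections or at day 21 after 19 injections, with 3 animals in each of the 4 groups and 1 library per animal. All groups carried the injury, so no uninjured animal was available for comparison, and EVs from serum do not report the tissue that released them. The sample labels name tendon as the tissue, whereas the protocol describes EVs isolated from serum by size exclusion. The paper states that size exclusion alone may not suffice to isolate EVs, and that full characterisation was not possible.

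MiRs of one cluster are cut from a single primary transcript, and in these clusters the same few seeds recur. The seed, bases 2 to 8 of the mature miR, pairs with target mRNAs, and miRs that share a seed are expected to share many targets. The miR-17-92 cluster is induced by MYC and is known for promoting proliferation, while miR-106b-25 lies in an intron of Mcm7, a gene for a subunit of the replicative helicase. In blood, several of these miRs are abundant in erythroid cells. The question posed by the design was whether rapamycin altered the miR cargo of circulating EVs.

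The mature sequences are shown, with the seed in capitals, because 4 seeds divide the 10 members across the cluster boundaries. They are from RefSeq (GRCr8), in which all 10 members were matched. The miR-17 seed is shared by these 4 members:
rno-miR-17-5p: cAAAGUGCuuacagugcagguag
rno-miR-20a-5p: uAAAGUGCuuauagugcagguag
rno-miR-93-5p: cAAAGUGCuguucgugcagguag
rno-miR-106b-5p: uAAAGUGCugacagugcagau
The miR-18 seed is held by 1 member:
rno-miR-18a-5p: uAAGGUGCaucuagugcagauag
The miR-19 seed is held by 2 members:
rno-miR-19a-3p: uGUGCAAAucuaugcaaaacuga
rno-miR-19b-3p: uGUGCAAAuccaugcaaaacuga
The miR-92 seed is held by 3 members:
rno-miR-92a-3p: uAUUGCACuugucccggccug
rno-miR-25-3p: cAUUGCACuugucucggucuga
rno-miR-363-3p: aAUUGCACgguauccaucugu

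The miR-19 pair differs by 1 base, U11C from rno-miR-19a-3p to rno-miR-19b-3p, counted from the 5′ end. Reads were matched to mature miRs with up to 1 mismatch, so the split between this pair is uncertain. In RefSeq GRCr8 the miR-17-92 precursors span chr15:98587848-98588632 on the plus strand, over 785 bases with 6 precursors and no overlapping gene. The miR-106a-363 precursors span chrX:137342777-137343647 on the minus strand, over 871 bases with 5 precursors and no overlapping gene. The miR-106b-25 precursors span chr12:22156641-22157134 on the minus strand, over 494 bases with 3 precursors, within Mcm7. Identical mature copies of rno-miR-17-5p, rno-miR-19b-3p and rno-miR-92a-3p are encoded by both chromosome 15 and chromosome X, so their counts cannot be assigned to 1 cluster. Here they were summed with miR-17-92, and rno-miR-363-3p was the single member counted for miR-106a-363. The count table itself carried no coordinates.

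Depth was low and uneven, at 16327 to 95834 miR counts per library. A count of 3 was therefore worth 31.3 to 184 CPM, the share of a library's miR counts scaled to a common total, before TMM scaling. Synthetic spike-in RNAs, added in fixed amounts, took 52.5% to 71.8% of the table in 10 libraries. They took 13.6% in vehicle day 7 replicate 1 and 24.3% in rapamycin day 7 replicate 2, which carried 12.8 and 5.53 miR counts per calibrator spike-in count against 0.686 to 1.58 in the other 10. The study's list of analysed libraries omits these 2 without a stated reason. All 12 libraries were used here, and the values of the 10 listed libraries are given beside those that the other 2 could alter. Tests on 10 libraries set 2 animals against 2 at day 7. Levels are TMM-scaled CPM unless stated, and intervals and limits on single libraries cover counting error only.

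The members were abundant as a sum, mostly through rno-miR-92a-3p and rno-miR-19b-3p. Together they made up 6.80% to 16.6% of all miR counts, and 12.2% to 16.6% in the 10 listed libraries. The group means were 11% ± 3.68 in vehicle and 11.5% ± 2.27 in rapamycin at day 7, and 13.2% ± 0.975 and 15.6% ± 0.872 at day 21 (SD, n = 3 each). The 2 unlisted libraries gave the lowest shares of their groups, 6.80% in vehicle and 8.91% in rapamycin. Per calibrator count they gave the highest values instead, 0.868 and 0.493, against 0.104 to 0.216 in the 10 listed libraries. At day 21 the lowest rapamycin share, 15.1%, lay above the highest vehicle share, 14.1%, with no test made of this sum. On the TMM scale the day 21 sums overlapped, at 124829 to 163592 CPM in vehicle and 142884 to 167471 CPM in rapamycin, as they did per calibrator count.

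The median level ranged from rno-miR-92a-3p at 59251 CPM, rank 4 of the 426 miRs, to rno-miR-106b-5p at 133.3 CPM, rank 152. Between these came rno-miR-19b-3p at 33736 CPM (rank 7), rno-miR-25-3p at 17290 CPM (rank 14), rno-miR-93-5p at 14559 CPM (rank 17) and rno-miR-19a-3p at 5590 CPM (rank 35). Lower still were rno-miR-17-5p at 2063 CPM (rank 59), rno-miR-20a-5p at 1945 CPM (rank 62), rno-miR-363-3p at 678 CPM (rank 88) and rno-miR-18a-5p at 249 CPM (rank 120). The order was not equally firm at each step. Within a library, rno-miR-92a-3p exceeded rno-miR-19b-3p in 11 of 12 libraries, with the exception of the unlisted vehicle day 7 replicate 1. The steps from rno-miR-19b-3p to rno-miR-25-3p, from rno-miR-93-5p to rno-miR-19a-3p, from rno-miR-19a-3p to rno-miR-17-5p, from rno-miR-20a-5p to rno-miR-363-3p and from rno-miR-363-3p to rno-miR-18a-5p held in 12 of 12 libraries. The step from rno-miR-25-3p to rno-miR-93-5p held in 11 of 12, although the mean log2 ratio of 0.33 was close to its SD of 0.30. The neighbours rno-miR-17-5p and rno-miR-20a-5p could not be ordered, as each was higher in 6 of 12 libraries. The lowest pair, rno-miR-18a-5p and rno-miR-106b-5p, could not be ordered either, with 7 of 12 libraries one way. Over the 10 listed libraries alone, rno-miR-92a-3p exceeded rno-miR-19b-3p in 10 of 10, rno-miR-25-3p exceeded rno-miR-93-5p in 9 of 10, rno-miR-17-5p exceeded rno-miR-20a-5p in 6 of 10 and the 5 firm steps held in 10 of 10. The median of rno-miR-92a-3p was then 64060 CPM and that of rno-miR-106b-5p 109.8 CPM.

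**Figure D1:**
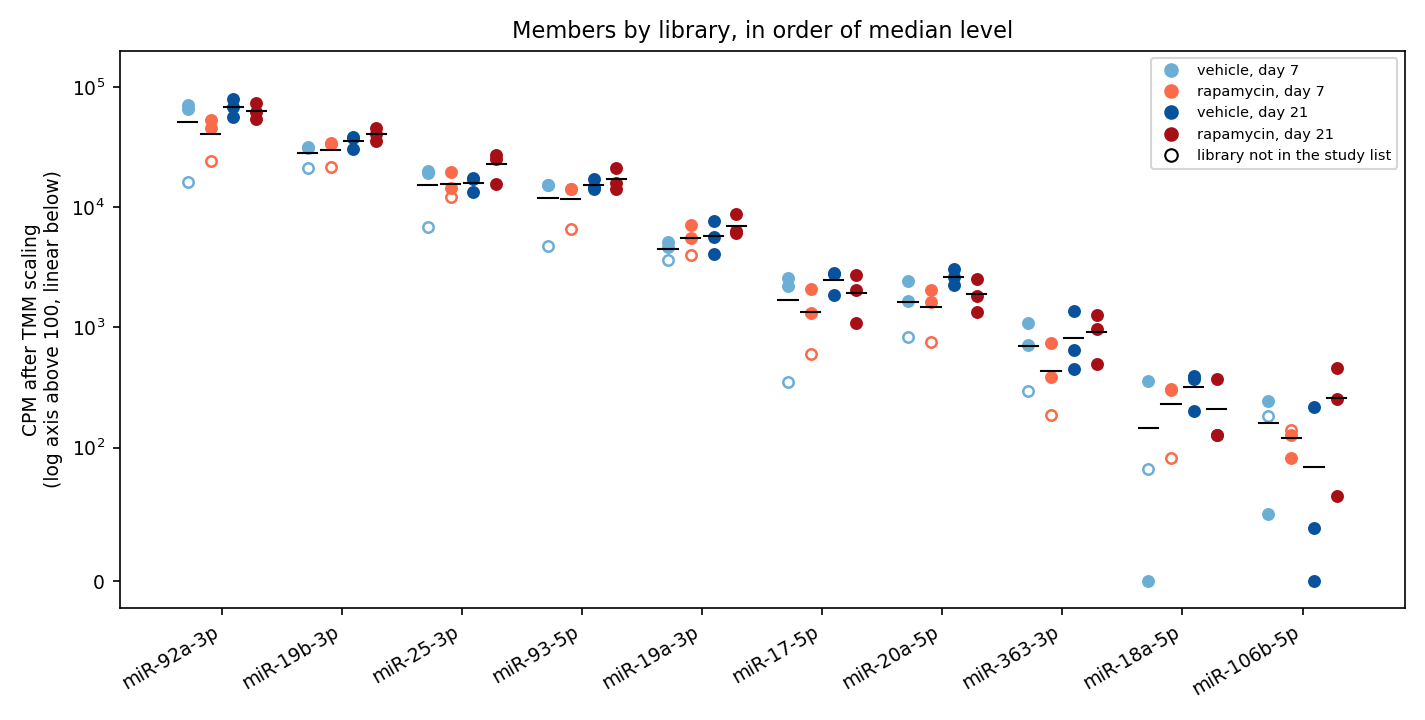
TMM-scaled CPM of each member (y axis, logarithmic above 100 CPM and linear below) for the 3 libraries of each group, with the group mean as a bar and the 2 unlisted libraries as open circles. Levels run from 59251 CPM for rno-miR-92a-3p to 133.3 CPM for rno-miR-106b-5p at the median, and in 8 of the 10 members the open circles are the lowest of their groups.

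Levels of the miR-92 seed members are given library by library. Vehicle animals at day 7 carried 16229, 70328 and 65830 CPM of rno-miR-92a-3p, the lowest value belonging to the unlisted library. Rapamycin animals at day 7 carried 52902, 24389 and 45167 CPM, again with the unlisted library lowest. At day 21 the values were 79345, 68612 and 56212 CPM in vehicle and 62291, 54008 and 73242 CPM in rapamycin, which overlapped.

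For rno-miR-25-3p, the miR-106b-25 member of this seed, the day 7 values were 6895, 20169 and 19098 CPM in vehicle and 19655, 12194 and 14445 CPM in rapamycin. At day 21 they were 17448, 17133 and 13347 CPM in vehicle and 27213, 15520 and 25387 CPM in rapamycin. Of the day 21 rapamycin animals, 2 of 3 lay above every vehicle animal and 1 lay within their range. Counts of rno-miR-363-3p were low, 9 to 43 per library, corresponding to 185 to 1370 CPM with wide overlap of all groups.

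Over all 12 libraries the miR-19 seed members varied least. Vehicle animals at day 7 carried 21348, 30999 and 31556 CPM of rno-miR-19b-3p and rapamycin animals 33554, 21629 and 33918 CPM. At day 21 the values were 38681, 37797 and 30214 CPM in vehicle and 40470, 45686 and 35204 CPM in rapamycin. The highest library exceeded the lowest by 2.14-fold, against 4.89-fold for rno-miR-92a-3p, whose lowest value was that of an unlisted library.

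Levels of rno-miR-19a-3p were 3628, 4695 and 5170 CPM in vehicle and 5572, 4024 and 7159 CPM in rapamycin at day 7. At day 21 they were 4074, 7704 and 5609 CPM in vehicle and 6280, 8696 and 6051 CPM in rapamycin. Both groups of each day overlapped.

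In the miR-17 seed group, rno-miR-93-5p was the main member. Its day 7 values were 4792, 15323 and 15421 CPM in vehicle and 14113, 6598 and 14147 CPM in rapamycin. Its day 21 values were 16979, 14846 and 14166 CPM in vehicle and 15795, 14272 and 20987 CPM in rapamycin, so the groups overlapped at both days.

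The name-giving member rno-miR-17-5p was far scarcer. Vehicle animals carried 352, 2196 and 2563 CPM and rapamycin animals 1316, 601 and 2088 CPM at day 7. At day 21 the values were 2812, 2769 and 1842 CPM in vehicle and 1078, 2039 and 2708 CPM in rapamycin. Its paralogue rno-miR-20a-5p ranged from 755 to 3049 CPM over the 12 libraries, with group means of 1626 ± 789 in vehicle and 1475 ± 660 in rapamycin at day 7 and of 2647 ± 390 and 1903 ± 606 at day 21 (SD, n = 3 each).

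At the bottom of the range, counts were too few to compare libraries. Counts of rno-miR-18a-5p, the single miR-18 seed member, were 0 to 16 per library and those of rno-miR-106b-5p were 0 to 22, with 1 library at 0 for each. On the TMM scale those zeros allow up to 75.7 CPM in vehicle day 7 replicate 2 for rno-miR-18a-5p and up to 122.8 CPM in vehicle day 21 replicate 3 for rno-miR-106b-5p. A count of 10 or more in all 12 libraries was reached by 7 of the 10 members, as by 74 of the 426 miRs.

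The spread between animals of a group differed among members. The pooled within-group SD of the log2 level was 0.28 for rno-miR-19b-3p, the fifth smallest among the 74 miRs that reached 10 counts in all 12 libraries, and 0.37 for rno-miR-19a-3p. It was 0.53 for rno-miR-25-3p, 0.60 for rno-miR-20a-5p and rno-miR-93-5p, 0.69 for rno-miR-92a-3p and 0.99 for rno-miR-17-5p. The median over the 74 miRs was 0.58. These values include the 2 unlisted libraries, which set the lowest value of both day 7 groups for all 7 members concerned. Without them the SD was 0.14 for rno-miR-19b-3p, 0.16 for rno-miR-93-5p, 0.19 for rno-miR-92a-3p, 0.29 for rno-miR-25-3p, 0.30 for rno-miR-19a-3p, 0.34 for rno-miR-20a-5p and 0.46 for rno-miR-17-5p, beside a median of 0.41. The larger spread of rno-miR-92a-3p and rno-miR-93-5p thus rested on the 2 unlisted libraries, while rno-miR-19b-3p had the smallest and rno-miR-17-5p the largest SD of the 7 in both sets.

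Each seed group was dominated by 1 member in every library. Of the miR-17 seed counts, rno-miR-93-5p supplied 71.7% to 84.1%, so most counts of this seed belonged to the miR-106b-25 cluster and not to the clusters that carry rno-miR-17-5p. The share of rno-miR-17-5p was 5.71% to 13.4%, that of rno-miR-20a-5p 7.36% to 14.7% and that of rno-miR-106b-5p 0% to 2.99%. Of the miR-19 seed counts, rno-miR-19b-3p supplied 82.6% to 90.5%. Of the miR-92 seed counts, rno-miR-92a-3p supplied 66.3% to 80.8%, rno-miR-25-3p 17.8% to 33.2% and rno-miR-363-3p 0.503% to 1.40%. Among the 10 listed libraries the same shares were 71.7% to 84.1% for rno-miR-93-5p, 82.6% to 90.5% for rno-miR-19b-3p and 68.6% to 80.8% for rno-miR-92a-3p.

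**Figure D2:**
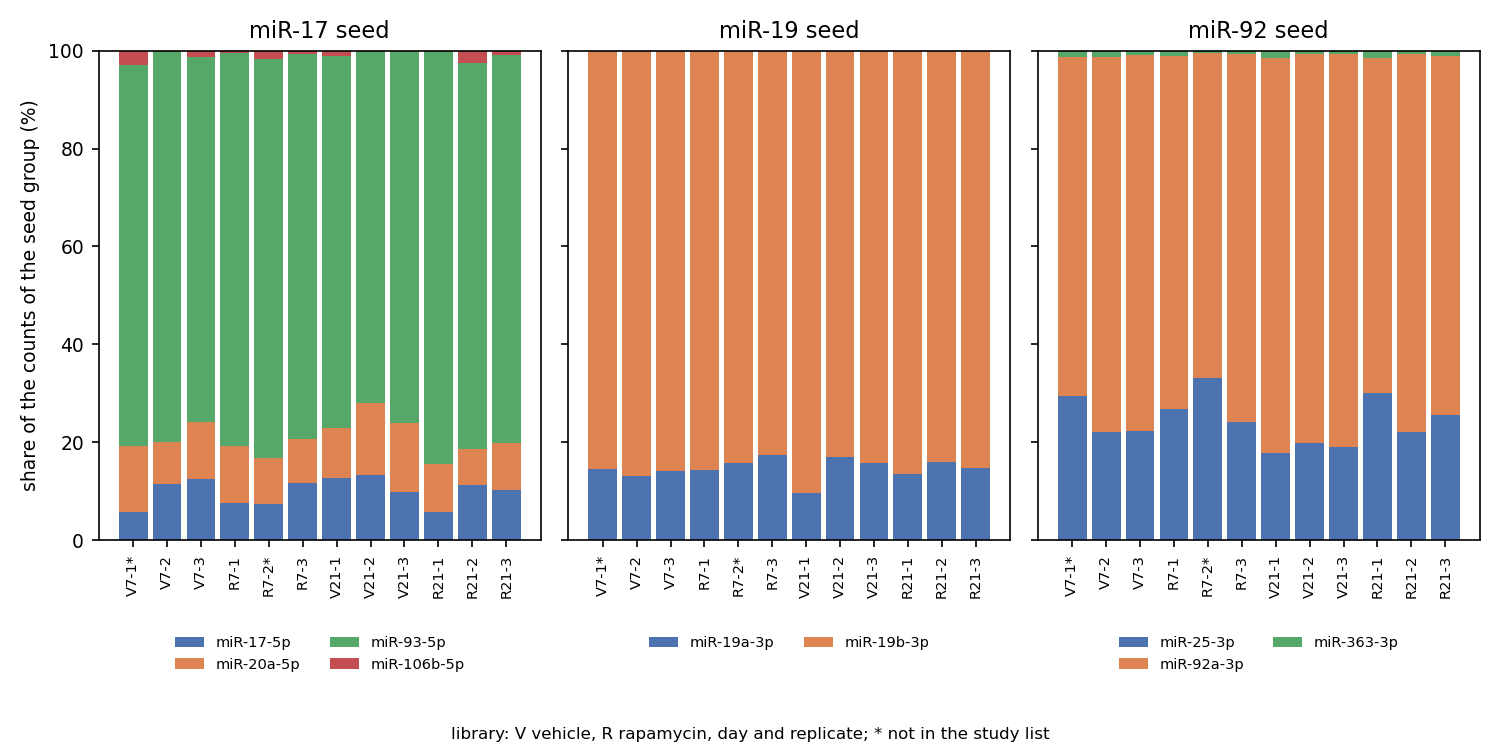
Share of the counts of each seed group (y axis, percent) supplied by each member in each of the 12 libraries (x axis: V vehicle, R rapamycin, then day and replicate, with an asterisk for an unlisted library). In every bar 1 member leads, with rno-miR-93-5p at 71.7% to 84.1%, rno-miR-19b-3p at 82.6% to 90.5% and rno-miR-92a-3p at 66.3% to 80.8%.

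Summed by seed, the miR-92 group made up 2.92% to 9.88% of all miR counts, the miR-19 group 3.11% to 5.75%, the miR-17 group 0.767% to 2.63% and rno-miR-18a-5p at most 0.0396%. Without the unlisted libraries these ranges narrowed to 6.30% to 9.88%, 3.21% to 5.75% and 1.76% to 2.63%. Other carriers of these seeds were rare. The table held 59 counts of rno-miR-92b-3p, 14 of rno-miR-32-5p and 13 of rno-miR-20b-5p over all 12 libraries, against 21342 of rno-miR-92a-3p.

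Members summed for the same cluster were present at very unequal levels. Chromosome X also encodes rno-miR-17-5p, rno-miR-19b-3p and rno-miR-92a-3p, so their shares of the miR-17-92 sum cannot be assigned to 1 primary transcript. Within miR-17-92, rno-miR-92a-3p supplied 38.2% to 64.0% of the counts and rno-miR-19b-3p 28.2% to 50.3%, while rno-miR-19a-3p supplied 3.19% to 8.54%. Of the same sum rno-miR-17-5p supplied 0.829% to 2.38%, rno-miR-20a-5p 1.19% to 2.70% and rno-miR-18a-5p 0% to 0.380%. Within miR-106b-25, rno-miR-25-3p supplied 48.5% to 64.4%, rno-miR-93-5p 34.9% to 51.5% and rno-miR-106b-5p 0% to 1.55%. Over the 10 listed libraries rno-miR-92a-3p supplied 48.2% to 64.0% and rno-miR-19b-3p 28.2% to 40.7% of miR-17-92, and rno-miR-25-3p 48.5% to 63.2% of miR-106b-25. Ligation and amplification of small RNA libraries recover sequences unequally, and these ratios between miRs were not calibrated for that.

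The miR-17-92 sum exceeded the miR-106b-25 sum in all 12 libraries, by 2.57-fold to 3.75-fold with a median of 3.12-fold. This rested on rno-miR-19b-3p and rno-miR-92a-3p, which the chromosome X cluster also encodes. Without them the remaining miR-17-92 members amounted to 0.216 to 0.429 of the miR-106b-25 sum, and without rno-miR-17-5p as well to 0.178 to 0.382.

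Ratios within a library do not depend on scaling. The ratio of rno-miR-19b-3p to rno-miR-92a-3p was 0.441 to 0.846 in the 10 listed libraries, but 1.32 in vehicle day 7 replicate 1 and 0.887 in rapamycin day 7 replicate 2. The ratio of rno-miR-93-5p to rno-miR-17-5p ranged widely, from 5.36 to 14.6, and that of rno-miR-20a-5p to rno-miR-17-5p from 0.653 to 2.36. The ratio of rno-miR-92a-3p to rno-miR-25-3p, which share a seed but not a cluster, was 2.00 to 4.55. In the 10 listed libraries the last 2 ranges were 0.653 to 1.71 and 2.29 to 4.55.

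Ratios were compared between treatments for 10 ratios at each of 2 days, by two-sided exact permutation tests over the 6 libraries of the day, in which 3 against 3 libraries cannot give p below 0.1. The ranges failed to overlap in 1 of these 20 tests. At day 21 the ratio of rno-miR-92a-3p to rno-miR-25-3p was 4.55, 4.005 and 4.21 in vehicle and 2.29, 3.48 and 2.89 in rapamycin, a mean log2 difference of -0.58 (exact permutation p = 0.1, adjusted p = 0.75 over the 20 tests). At day 7 the same ratio was 2.35, 3.49 and 3.45 in vehicle and 2.69, 2.00 and 3.13 in rapamycin, which overlapped (mean log2 difference -0.25, exact permutation p = 0.5). Without the unlisted libraries the day 7 ratios were 3.49 and 3.45 in vehicle and 2.69 and 3.13 in rapamycin. Every day 21 vehicle ratio also lay above every day 7 ratio of either treatment. This difference between days was not tested.

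**Figure D3:**
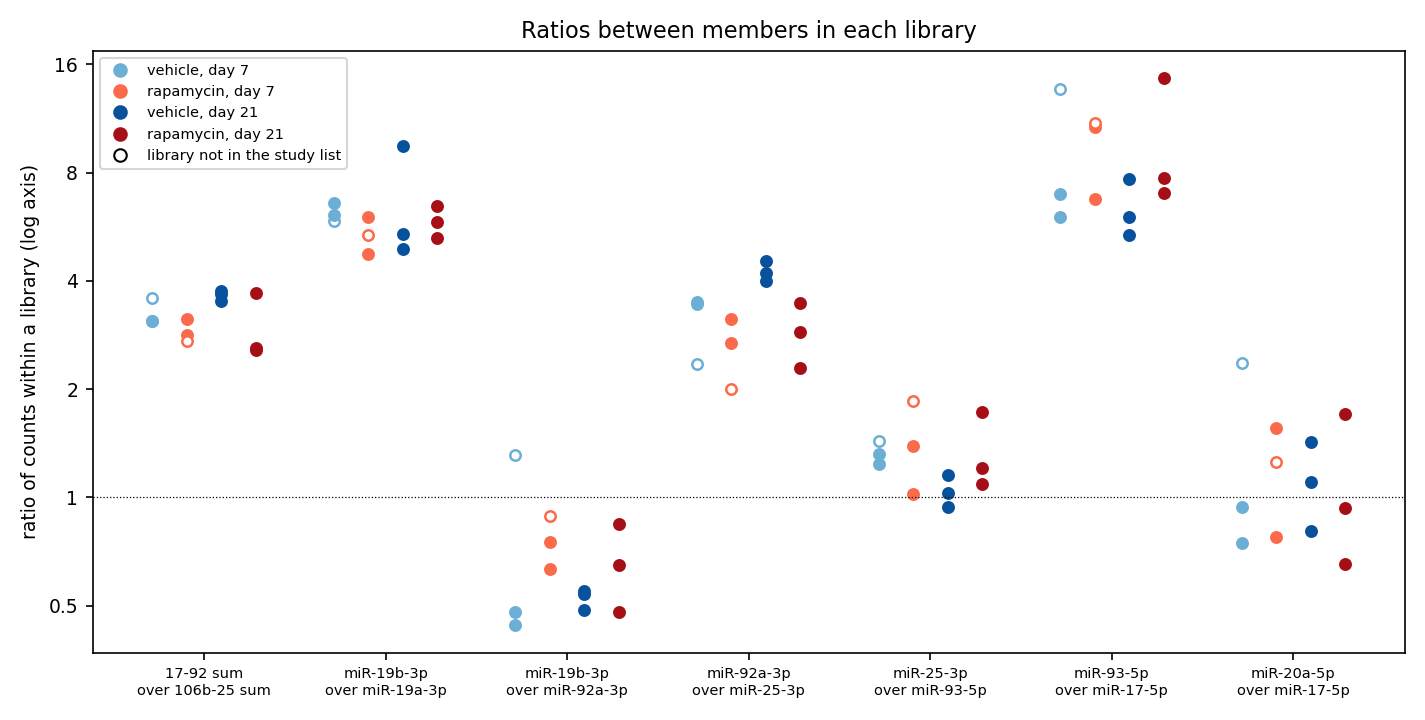
Ratios of counts between members within each library (y axis, logarithmic to base 2), by group, with the 2 unlisted libraries as open circles. Ranges of the 2 treatments at the same day were apart only for the ratio of rno-miR-92a-3p to rno-miR-25-3p at day 21. They were 4.005 to 4.55 in vehicle and 2.29 to 3.48 in rapamycin.

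The main treatment question was asked with edgeR's quasi-likelihood test on the counts of all 426 miRs, with p-values adjusted over all of them by the Benjamini-Hochberg method and a call made at an adjusted p under 0.05. At day 7 no member was called in rapamycin against vehicle. The background was equally empty, as 0 of 426 miRs (0%) were called, 8 had an unadjusted p under 0.05 and DESeq2 called 0. That background depended on the processing. Independent filtering of scarce miRs, which the study's methods name, called 1 of 426, and leaving out single libraries gave 0 to 2 calls. No member was among these. The members' log2 fold changes ran from -0.68 for rno-miR-363-3p to 0.63 for rno-miR-18a-5p, with a median of -0.08 beside -0.07 over all miRs tested. The lowest unadjusted p among the members was 0.35, and every adjusted p was 1 (edgeR).

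With the 10 listed libraries, 2 of 365 miRs were called at day 7 (0.548%), and none was a member. Members then ran from -0.63 to 0.79 on the log2 scale, with a median of -0.13 beside 0.00 over all miRs. The most precise estimates were those of the abundant members. For rno-miR-92a-3p the log2 fold change at day 7 was -0.32 (SE 0.46), a fold of 0.804 with a 95% interval of 0.429 to 1.505, and -0.43 (SE 0.31) in the 10 listed libraries. For rno-miR-19b-3p it was 0.09 (SE 0.46), a fold of 1.06 with an interval of 0.566 to 1.99, and 0.16 (SE 0.33) in the 10.

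At day 21 no member was called either, with 0 of 426 miRs called (0%), an unadjusted p under 0.05 for 12 and 0 calls by DESeq2. The members ran from -0.59 for rno-miR-18a-5p to 1.56 for rno-miR-106b-5p, with a median of 0.15 beside 0.00 over all miRs, although calibrator scaling turned the median to -0.21. For rno-miR-106b-5p, which had 6, 1 and 0 counts in vehicle and 1, 11 and 6 in rapamycin, the SE was 1.24 and the unadjusted p was 0.21 (edgeR, adjusted p = 1). In the 10 listed libraries, of which 6 are the day 21 libraries, 0 of 365 miRs were called (0%) and the median of the members was 0.30 beside 0.00, or -0.20 with calibrator scaling.

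All 3 miR-106b-25 members had positive estimates at day 21, although that of rno-miR-93-5p was negative, at -0.12, when scaled to the spike-in calibrators. The log2 fold change of rno-miR-25-3p was 0.51 (SE 0.47), a fold of 1.42 with a 95% interval of 0.749 to 2.70 (edgeR, adjusted p = 1). In the fit of the 10 listed libraries it was 0.66 (SE 0.30), a fold of 1.58 with an interval of 1.05 to 2.38. The unadjusted p in that fit was 0.029, the single one under 0.05 among the members, while the adjusted p was 1 (edgeR). For rno-miR-93-5p the log2 fold change was 0.15 (SE 0.48), and 0.31 (SE 0.31) in the 10.

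The miR-17-92 members gave mixed directions at day 21. Estimates were -0.34 (SE 0.58) for rno-miR-17-5p, -0.47 (SE 0.58) for rno-miR-20a-5p and -0.11 (SE 0.46) for rno-miR-92a-3p. They were 0.28 (SE 0.51) for rno-miR-19a-3p and 0.19 (SE 0.46) for rno-miR-19b-3p. The fit of the 10 gave -0.17, -0.31, 0.05, 0.41 and 0.32. By seed, the 2 miR-19 members were positive at both days with medians of 0.20 and 0.23, although calibrator scaling turned both at day 7 and rno-miR-19b-3p at day 21. The 4 miR-17 seed members were negative at day 7 with a median of -0.25, although total count scaling turned rno-miR-20a-5p and rno-miR-93-5p, and they split 2 to 2 at day 21. None of these values passed the test.

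**Figure D4:**
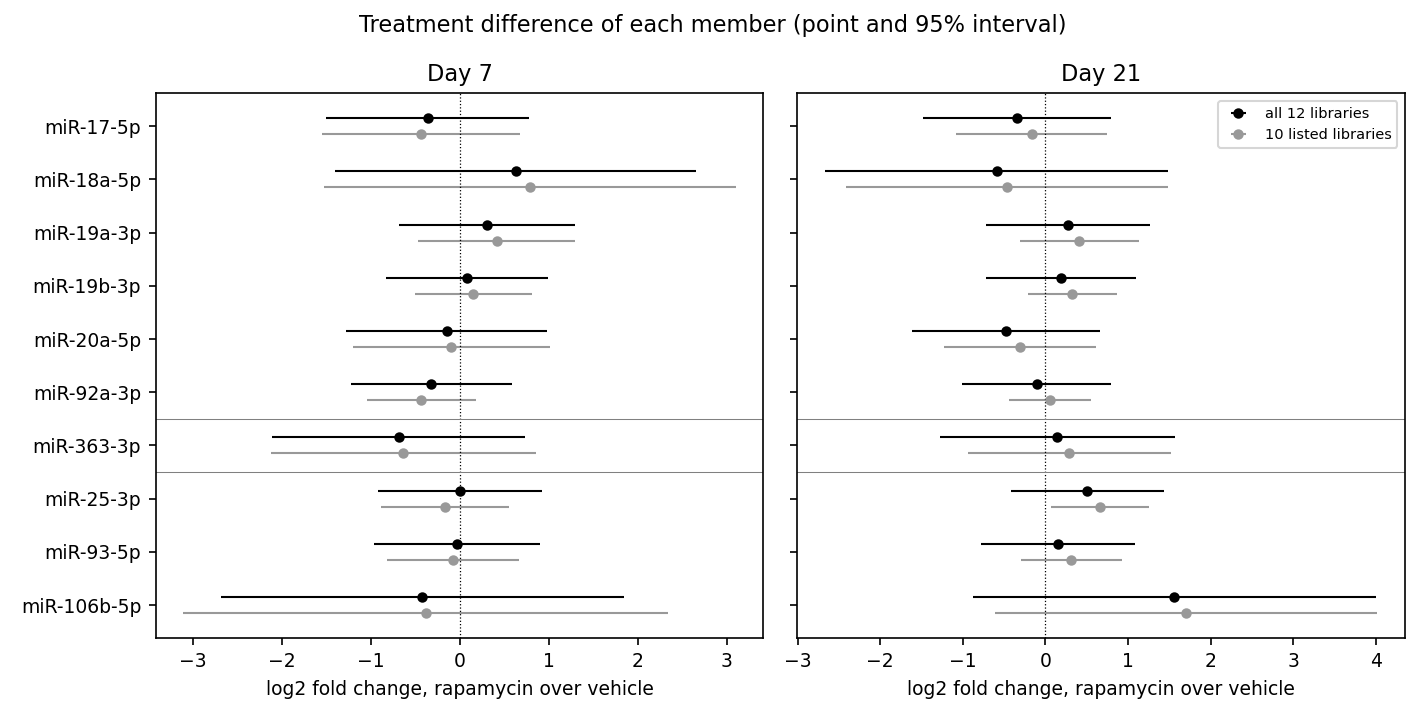
Log2 fold change of each member, rapamycin over vehicle, at day 7 and day 21 (x axes), with 95% intervals, from the fit of all 12 libraries (black) and of the 10 listed libraries (grey). Every interval from the 12 libraries includes 0, and in the 10 libraries the interval of rno-miR-25-3p at day 21 alone lies above 0, with an adjusted p of 1 (edgeR).

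With timepoint as a block, the general effect of treatment was tested over both days. In that fit 0 of 426 miRs were called (0%), 15 had an unadjusted p under 0.05 and DESeq2 called 0. The members ran from -0.35 to 0.51, with a median of 0.05 beside -0.10 over all miRs. The 10 listed libraries gave 2 calls among 365 miRs (0.548%), neither a member, and the median of the members was 0.11 beside 0.03.

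The treatment difference did not differ detectably between days for any member. The interaction test called 0 of 426 miRs (0%), DESeq2 called 0, and 14 miRs had an unadjusted p under 0.05. It called 1 of 365 (0.274%) in the 10 listed libraries, again no member. The members ran from -1.98 to 1.22 for the day 7 difference minus the day 21 difference. For this difference between days the abundant 7 members had 95% intervals that reached as low as 0.286-fold and as high as 3.82-fold. Differences between days of well over 2-fold thus remained within the error. For the treatment difference itself the intervals of these 7 reached 0.355-fold and 2.46-fold at day 7, and 0.327-fold and 2.70-fold at day 21. The fit gave all miRs a shared trend of the spread, so a member's own replicate spread did not set its interval.

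Between days the members shared no called change. From day 7 to day 21, 2 of 426 miRs were called in vehicle (0.469%) and 5 in rapamycin (1.17%), with no member among them, and DESeq2 called 0 in each. These background numbers depended on the processing, with 41 calls in vehicle and 1 in rapamycin under calibrator scaling. In rapamycin there were 0 calls without day 21 replicate 1 or 3 of that group, 14 without its replicate 2 and 1 without its unlisted library, and in vehicle 1 to 6 on leaving out single libraries, with 6 without vehicle day 7 replicate 3. The days were different animals, and these comparisons share their libraries with the treatment comparisons. In vehicle the members had a median of 0.37 beside -0.43 over all miRs, and in rapamycin 0.55 beside -0.07, with 9 of 10 positive in each under TMM scaling but negative medians under calibrator scaling. Most members were abundant, while the medians over all miRs included many scarce ones. The 7 members with 10 or more counts in all 12 libraries had medians of 0.37 in vehicle and 0.55 in rapamycin. Over the 74 miRs that reached the same counts the medians were 0.07 and 0.18. In the 10 listed libraries the medians of all 10 members were 0.04 beside 0.00 in vehicle and 0.38 beside 0.00 in rapamycin. Of 365 miRs, 1 (0.274%) and 2 (0.548%) were called there, with no member among them. With all 12 libraries, scaling to the calibrators turned the medians to -1.26 and -0.87, beside -2.66 and -1.80 over all miRs.

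Overlap of the animals was also counted for the 7 members that reached 10 counts in all 12 libraries. With all 12 libraries, rapamycin and vehicle overlapped in 7 of 7 members at day 7 and at day 21, where 1.35% and 14.9% of the 74 miRs did not overlap. With the 10 listed libraries, 5 of 7 did not overlap at day 7, where 2 animals stood against 2 and 52% of 75 miRs did not overlap, so the members' share was near the background. Of these, rno-miR-19a-3p and rno-miR-19b-3p lay higher in rapamycin and rno-miR-17-5p, rno-miR-92a-3p and rno-miR-93-5p lay lower. At day 21 rno-miR-19b-3p alone did not overlap in that set and lay higher in rapamycin, beside 10.7% of the miRs. The day 21 libraries are the same in both sets, so only the TMM scaling, computed anew over the 10 libraries, differed. Scaled over all 12, rno-miR-19b-3p overlapped, with 35204 CPM the lowest in rapamycin and 38681 CPM the highest in vehicle.

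The opposite arms of the precursors were tested against the same table. Of 20 further products of the clusters and further carriers of the seeds, 11 were in the table and 0 of 11 were called at either day, in the 12 or in the 10 libraries, the background being that given above for each comparison. For rno-miR-92a-3p the opposite arm rno-miR-92a-1-5p had 16 counts over 12 libraries beside 21342. For rno-miR-25-3p the opposite arm had 85 beside 6890, for rno-miR-93-5p 20 beside 5367 and for rno-miR-17-5p 58 beside 697. The exception was the miR-106b precursor, whose rno-miR-106b-3p exceeded rno-miR-106b-5p in 9 of 12 libraries, with 196 counts beside 75. The largest value at day 21 was that of rno-miR-20a-3p, which had 13, 4 and 0 counts in rapamycin and 0, 0 and 1 in vehicle. Its log2 fold change was 4.31 (SE 1.86), with an unadjusted p of 0.021 and an adjusted p of 1 (edgeR), resting mainly on 1 library.

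MiRs with the pattern most like each seed group were found as those whose log2 ratio to the group's sum had the smallest SD over the 12 libraries, among 67 miRs. For the miR-17 seed these were rno-miR-16-5p (SD 0.21), rno-miR-15a-5p (SD 0.22) and rno-miR-652-3p (SD 0.25), beside a median SD of 0.72. For the miR-92 seed they were rno-miR-15a-5p (SD 0.24), rno-miR-16-5p (SD 0.27) and rno-miR-652-3p (SD 0.28), beside 0.74. For the miR-19 seed they were rno-miR-107-3p (SD 0.21), rno-miR-103-3p (SD 0.23) and rno-miR-320-3p (SD 0.24), beside 0.65. Over the 10 listed libraries the lists changed in part. They were rno-miR-103-3p, rno-miR-223-3p and rno-miR-16-5p for the miR-17 seed (SD 0.17 to 0.20), rno-miR-223-3p, rno-miR-103-3p and rno-miR-15a-5p for the miR-92 seed (SD 0.19 to 0.24) and rno-miR-107-3p, rno-miR-16-5p and rno-miR-320-3p for the miR-19 seed (SD 0.22 to 0.23), beside a median SD of 0.51 for each. All points share their libraries and scaling, so these are descriptions.

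Markers of blood and other cells differed across the same libraries. The 4 erythrocyte miRs (rno-miR-451-5p, rno-miR-144-3p, rno-miR-144-5p and rno-miR-486) were all detected and summed to 14578 to 94288 CPM in vehicle and 37307 to 94477 CPM in rapamycin at day 7. At day 21 they summed to 74550 to 135377 CPM in vehicle and 87087 to 144627 CPM in rapamycin. The lowest sums, 14578 and 37307 CPM, were those of the 2 unlisted libraries. These also had the lowest miR-17 seed sums, at 6158 and 8094 CPM, and the lowest miR-92 seed sums, at 23417 and 36768 CPM. Per calibrator count the order of the seed sums was the reverse. The 2 libraries then had 0.0978 and 0.0565 for the miR-17 seed, against at most 0.0290 in the 10 listed libraries. For the miR-92 seed they had 0.372 and 0.257, against at most 0.135. In the 10 listed libraries the erythrocyte sum was 71741 to 144627 CPM and the members' sum 119351 to 167471 CPM.

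All 3 platelet and myeloid miRs (rno-miR-223-3p, rno-miR-142-3p and rno-miR-142-5p) were detected and summed to 3033 to 28369 CPM over the 12 libraries, with the 2 unlisted libraries again lowest at 3033 and 5026 CPM. The 2 endothelial miRs summed to 9071 to 32985 CPM. The 2 liver miRs summed to 3938 to 10657 CPM in vehicle and 8587 to 10141 CPM in rapamycin at day 7, and to 321 to 6223 and 0 to 4785 CPM at day 21. The skeletal muscle list of 4 reached 8839 CPM in vehicle day 7 replicate 1 and at most 1872 CPM elsewhere, with rno-miR-133b-3p and rno-miR-206-3p at 0 in the other 11 libraries. The part of these cell types in the members' levels was not tested. In EVs, fewer vesicles from a cell type and less of a miR per vesicle cannot be told apart.

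**Figure D5:**
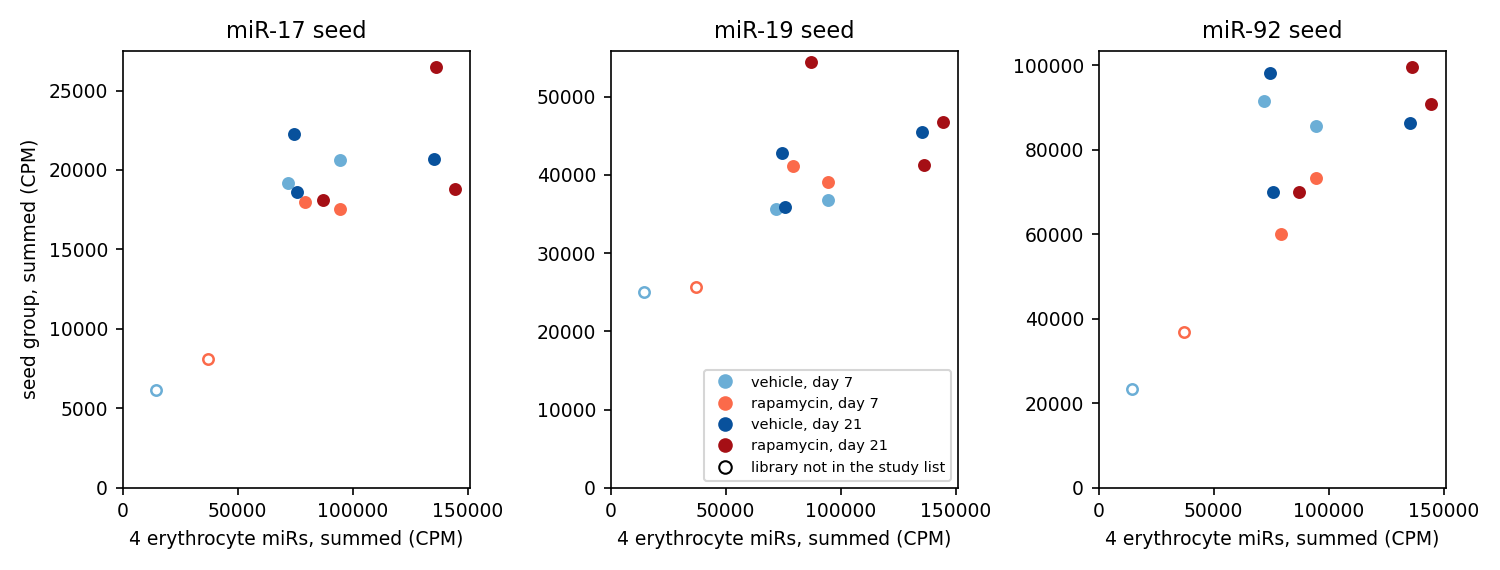
Summed level of each seed group (y axes, CPM) against the summed level of 4 erythrocyte miRs (x axes, CPM) in the 12 libraries, coloured by group, with the 2 unlisted libraries as open circles. The open circles lie at the lower left of each panel, at 14578 and 37307 CPM of the erythrocyte miRs, while the 10 listed libraries lie between 71741 and 144627 CPM.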

How the data were processed

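The authors deposited a table of raw counts per mature miR and spike-in for 12 serum EV libraries, 1 per animal. Per the study's methods and the processing notes, adapters were trimmed with cutadapt 3.3, reads of at least 17 bases were aligned with Bowtie 1.3.0 to the mRatBN7.2 genome with up to 2 mismatches and to miRBase with up to 1, and counts came from miRDeep2. The authors tested them with edgeR 3.32.

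From the counts, 426 miRs were fitted here with edgeR 4.0.16 (R 4.3.3): TMM scaling, quasi-likelihood F-tests over the 4 groups, no filter, and Benjamini-Hochberg adjustment over all miRs at 0.05. The 10 spike-ins (7 calibrators) stayed out of library sizes. The same fit was made on the 10 listed libraries. The script was tested on simulated data. Replicate numbers came from the labels, and no pair of libraries in a group agreed within counting noise. Alternatives were other scalings and filters, DESeq2 1.42.0, a replicate block, and leaving out each library. Named miRs were all 10 members, 20 further cluster products or seed carriers, and the 3 miRs most alike in pattern to each seed group. Members and lists were chosen with earlier results of these data known.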

Additional observations from a re-analysis of the deposited data

How the results depend on the processing

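No member was called under any of the 25 alternatives in the comparisons each was run for, which were all 6 except with the 6 libraries of 1 day, used for the treatment comparison at that day. The lowest adjusted p of a member was 0.22. Calls over all miRs varied with the setting. Independent filtering called 1 of 426 at day 7, 0 at day 21, 2 with timepoint as a block and 1 for the interaction. Leaving out single libraries gave 0 to 2 calls at day 7, at day 21 and for the interaction, and 0 to 1 with the block. Of 492 recomputed member values at day 7 and day 21, 53 changed sign, all of them uncalled, and the causes of the changes were not tested. Calibrator scaling moved the median log2 fold change of the members to -0.65 at day 7, -0.21 at day 21 (where the sign turned), -0.48 with timepoint as a block, -1.26 from day 7 to day 21 in vehicle and -0.87 in rapamycin. In the same order, the medians over all miRs under that scaling were -1.12, 0.00, -0.76, -2.66 and -1.80. In the 10 listed libraries with calibrator scaling the day 21 value was -0.20, beside -0.09 over all miRs. There the changes from day 7 to day 21 were -0.31 in vehicle and -0.18 in rapamycin, beside -0.35 and -0.30 over all miRs.

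At day 7, signs changed under calibrator scaling for rno-miR-18a-5p (-0.31), rno-miR-19a-3p (-0.70), rno-miR-19b-3p (-0.85, or -0.038 in the 10 libraries) and rno-miR-25-3p (-0.35, or -0.31 in the 10). Under total count scaling they changed for rno-miR-20a-5p (0.012, or 0.0498 in the 10) and rno-miR-93-5p (0.15, or 0.063), and in the 10 for rno-miR-25-3p (-0.025). The 10 libraries alone gave -0.16 for rno-miR-25-3p and filterByExpr gave -0.018. For rno-miR-93-5p, RLE scaling, DESeq2 and a minimum of 10 counts in every library gave 0.12, 0.12 and 0.10. At day 21, calibrator scaling changed rno-miR-19b-3p (-0.072 in both sets), rno-miR-363-3p (-0.29 in both) and rno-miR-93-5p (-0.12 in both). For rno-miR-92a-3p the value was 0.0501 in the 10 libraries, 0.0474 under RLE and DESeq2, 0.0538 under total count scaling in both sets, 0.016 under filterByExpr and 0.0049 with the 6 libraries of that day.

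Leaving out each library gave -0.83 to 0.10 for rno-miR-17-5p, -0.027 to 0.18 for rno-miR-19b-3p, -0.43 to 0.25 for rno-miR-20a-5p, -0.29 to 0.25 for rno-miR-25-3p and -0.37 to 0.22 for rno-miR-93-5p at day 7. At day 21 it gave -0.58 to 0.14 for rno-miR-17-5p, -0.23 to 0.17 for rno-miR-92a-3p and -0.15 to 0.87 for rno-miR-363-3p. The median of the members ran from -0.33 to 0.19 at day 7 and from -0.03 to 0.30 at day 21.

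The log2 ratio of the miR-17-92 sum to the miR-106b-25 sum moved from 1.64 to -1.76 without rno-miR-19b-3p and rno-miR-92a-3p and to -2.03 without rno-miR-17-5p as well, which follows from removing the most abundant members. With plain CPM, 1 of 7 members (rno-miR-19a-3p) did not overlap at day 7 and 3 at day 21 (rno-miR-19b-3p, rno-miR-25-3p and rno-miR-93-5p, all higher in rapamycin), beside 5.41% and 14.9% of the 74 miRs. In the 10 listed libraries 3 of 7 did not overlap at each day with plain CPM, beside 60.0% and 14.7% of 75 miRs, and 5 and 1 on the TMM scale, beside 52% and 10.7%.

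Same-numbered libraries did not deviate together, with correlations of -0.77 to 0.32 over 6 pairs of which 1 was over 0.1, so the numbers were not taken to pair animals. A replicate block called 0 members in each comparison, with medians of -0.07 at day 7 and 0.15 at day 21, and gave -0.0011 for rno-miR-25-3p at day 7. Depth limited rno-miR-18a-5p, rno-miR-106b-5p and rno-miR-363-3p most.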
